A study of Mus musculus with 5 samples.

Results

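RNA polymerase II (RNAPII) peaks that carried a peak of the NELF-A subunit, and on which neither NELF-B nor an R-loop peak was listed, numbered 2170. They made up 29.7% (95% Wilson interval 28.7 to 30.7%) of the 7309 RNAPII peaks narrower than 5000 bp, and the whole RNAPII list held 7718 peaks. Members were chosen by measured values, the calls in all 4 peak lists: a peak was a member when it overlapped a NELF-A peak by 1 bp or more and overlapped no peak of the NELF-B and DRIP lists. All targets were mapped in primary mammary epithelial cells from virgin mice of mixed strain, 6 to 8 weeks old, with no genotype or treatment given in the labels used here. RNAPII and NELF were mapped by ChIP-seq. R-loops were mapped by DRIP-seq, which pulls down RNA-DNA hybrids with an antibody. The labels describe an enzymatic digestion of whole glands and no sorting of luminal from basal cells. Of the 5 samples, 4 had a peak list that was used. A DRIP-seq sample with RNase H, which digests RNA in RNA-DNA hybrids, was not analysed here.

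NELF, the negative elongation factor, is built from the subunits NELF-A, NELF-B, NELF-C/D and NELF-E and holds RNAPII in a paused state shortly downstream of gene starts. NELF-A joins NELF-C/D in the part of the complex that contacts the polymerase, and NELF-B connects to NELF-C/D and NELF-E. The kinase P-TEFb releases paused RNAPII into productive elongation. R-loops are stretches in which nascent RNA stays paired with its template DNA strand. NELF-B is also known as COBRA1, a binding partner of the breast tumour suppressor BRCA1.

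Each target had 1 deposited list, so no spread between replicates could be given, and intervals cover counting error among peaks alone. The lists give mm9 positions and a whole number per peak, called the score here, whose unit is not stated. The score is the authors' own value, and it was compared only within a list. The lowest score was 104 in the RNAPII list and 9 in the NELF-A list. Peak ends lie on a 250 bp grid in the RNAPII, NELF-A and NELF-B lists, and in the DRIP list with 1 exception. The narrowest RNAPII peak listed measured 500 bp. The NELF-A list held 10782 peaks, the NELF-B list 3925 and the DRIP list 10031, and sequencing depth is unknown. Genes were not assigned to peaks here, so the labelled cell type was not checked against marker genes, and regions are named by position.

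NELF-A-only peaks were close in number to their nearest counterpart, the 2034 RNAPII peaks under 5000 bp with both NELF subunits and no DRIP (27.8%). A further 1689 peaks (23.1%) had neither NELF nor DRIP, and 402 (5.50%) had NELF-A and DRIP without NELF-B. The lists differ in length, and the share moved with it. With the NELF-A list limited to as many of its highest-score peaks as the NELF-B list holds, 11.6% of RNAPII peaks (848 peaks) had NELF-A alone. At the width limit, the 2 widest members measured 4750 bp with RNAPII scores of 1288 and 2362. The 8 NELF-A-only peaks of 5000 bp just outside the limit scored 1238 to 3620, and 30 such peaks in all lay at or above it. At the overlap limit, 76 members (3.502%) shared 250 bp with NELF-A, the smallest overlap seen. Another 27 RNAPII peaks without NELF or DRIP touched a NELF-A peak without sharing a base.

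NELF-A-only sites were mostly short RNAPII peaks of low to middling score. Their median width was 750 bp (quartiles 500 and 1250 bp), against 1000 bp (750 and 1500 bp) for peaks with both NELF subunits and no DRIP. The members' median width was 1500 bp when the lower-scoring 50% of each list was left out. Peaks of 500 or 750 bp made up 51.6% of members (49.5 to 53.7%) and 30.04% (28.1 to 32.1%) of the class with both subunits. Short width was not particular to members. In the class without NELF and DRIP such peaks made up 57.6% (55.2 to 59.9%), and the median width was also 750 bp. Over all RNAPII peaks under 5000 bp the median width was 1000 bp. The RNAPII score of members ran from 104 to 2766 with a median of 206 (interval 193 to 214). The class with both subunits had a median of 303 (291 to 318) and the class without NELF and DRIP one of 166 (162 to 169). Of the members, 35 (1.61%) ranked in the upper 10% of the RNAPII list, the best at rank 250. These ranks were taken over the whole list. It includes 409 peaks of 5000 bp or more, which the rule leaves out and which tend to score high. The share is therefore low in part by construction.

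Since score rises with width, classes were also compared among RNAPII peaks of the same width. At equal width, members stood between peaks with both NELF subunits and peaks with neither. A score above the median of all RNAPII peaks of its width was found for 50.6% of members (1098 of 2170), where all RNAPII peaks under 5000 bp gave 49.0%. This pooled share mixes widths. It was 60.9% for members of 500 bp and 48.5% at 1000 bp. At 1250, 1500 and 2000 bp it was 35.6%, 44.6% and 36.5%. With both subunits and no DRIP the pooled share was 66.0%, a difference of -15.4 percentage points (95% Newcombe interval -18.3 to -12.5). This difference was -24.98 points for the higher-scoring 50% of each list. With neither NELF nor DRIP it was 22.02%, a difference of 28.6 points (25.6 to 31.4). Members differed from the class with NELF-A and DRIP by -3.13 points (-8.39 to 2.19), an interval that includes no difference. That value pools unlike widths, as 15.7% of that class and 51.6% of members measured 500 or 750 bp. At 1000 bp its median score was 257.5 (244 to 277) against 241 (237 to 243) for members. At 2000 bp the medians were 632 (597 to 676) and 575.5 (550 to 624). The order was the other way at 750 bp (169 and 171) and 1750 bp (485 and 490.5).

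The gap to the class with both subunits was seen from 750 bp upwards. Among 500 bp peaks the median score was 112 in both classes (599 members and 250 others). There 60.9% and 61.2% scored above the median of that width, a difference of -0.265 points (-7.31 to 6.99). At 1000 bp, 406 members had a median score of 241 (237 to 243) and 447 peaks with both subunits one of 259 (253 to 265). At 1250 bp the medians were 317.5 and 365, and at 2000 bp they were 575.5 (550 to 624) and 690 (653 to 735). Of the 7 widths with at least 30 peaks in each class, members were lower in all 7, and the interval lay below 0 in 6. Against peaks without NELF and DRIP, members were higher at all 7 widths and every interval lay above 0.

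**Figure D1:**
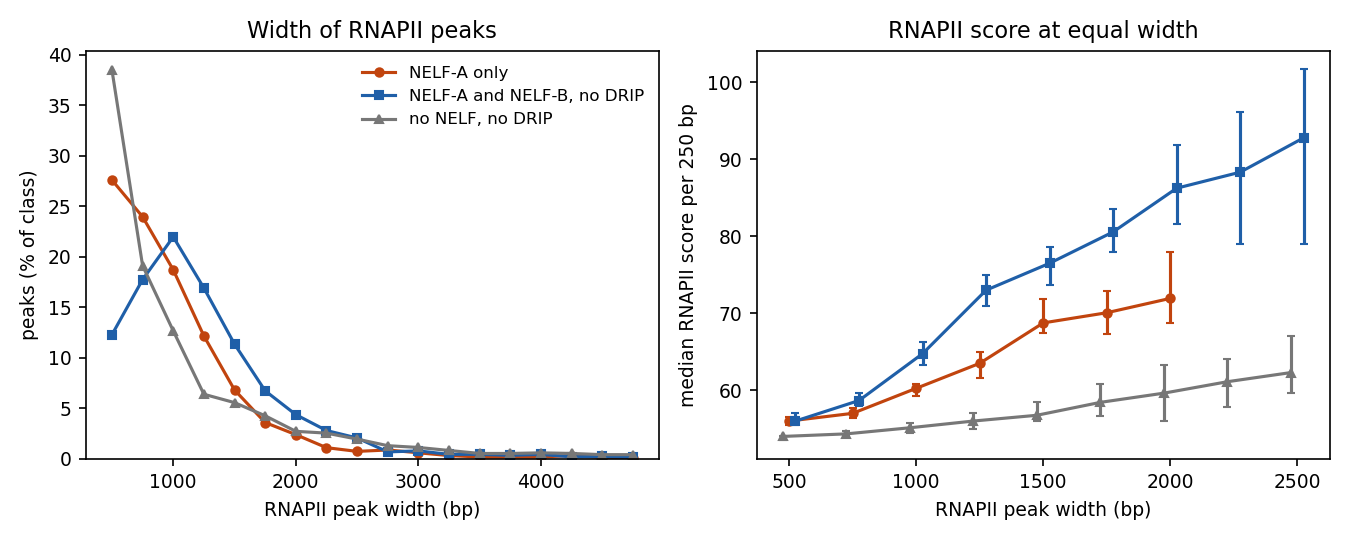
Left, share of each class of RNAPII peak (%) by peak width (bp). Right, median RNAPII score per 250 bp of peak with its 95% order-statistic interval, for widths with at least 30 peaks; NELF-A-only peaks coincide with the class with both NELF subunits at 500 bp and lie below it from 750 bp, and above the class without NELF and DRIP throughout.

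Like other RNAPII peaks with NELF-A, members usually held a single NELF-A peak, and its score was moderate. Members held 1 NELF-A peak in 2106 cases (97.1%, where all RNAPII peaks with NELF-A gave 96.6%), 2 in 62 and 3 or more in 2. With both subunits and no DRIP, 98.3% held 1 NELF-A peak. The NELF-A peaks under members numbered 2221, or 20.6% of the NELF-A list. Since NELF-A and NELF-B chose the members, NELF-A values are given as a description. The score of the highest NELF-A peak at a member ran from 9 to 125, with a median of 28 (quartiles 19 and 38). At RNAPII peaks with both subunits and no DRIP it ran from 9 to 298, with a median of 44 (34 and 59). In the upper 10% of the NELF-A list were 62 members (2.86%) and 471 peaks of the class with both subunits (23.2%). At the other end, 91 members sat at the lowest score of the NELF-A list. That count is given for members alone, and the class with both subunits also reached this score.

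The higher the NELF-A score, the more often a NELF-B peak was listed as well. Calls in both lists chose the members, so this too is a description. The NELF-B list is the shorter one, with 3925 peaks against 10782 for NELF-A, and the part of list length was not tested. RNAPII peaks with NELF-A and no DRIP were split into 10 groups of rising NELF-A score, of 358 to 497 peaks each. In group 1, with scores of 9 to 16, NELF-B was not listed at 401 of 423 peaks, or 94.8% (92.3 to 96.5%). In group 5, with scores of 32 to 36, the share was 56.3% (51.9 to 60.6%). In group 10, with scores of 66 to 298, it was 8.87% (6.51 to 11.99%), or 37 of 417 peaks. The share fell at each step.

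Within these groups, RNAPII score differed between members and peaks with both subunits in groups 7 to 10. Among members, the share with an RNAPII score above the median of its width stayed between 41.9% and 55.4% across the 10 groups. Among peaks with both subunits it was 31.8% (7 of 22) in group 1, 67.2% in group 7 and 85.8% (326 of 380) in group 10. In groups 1 to 6 the interval of the difference included 0, and in groups 1 to 3 the members' share was the higher one. In group 7 the difference was -14.3 points (-23.8 to -4.72), in group 8 it was -12.9 (-23.1 to -2.50), in group 9 it was -21.4 (-31.8 to -10.7) and in group 10 it was -37.1 (-52.7 to -21.2). Group 10 spans a wide range of NELF-A score, of which members reached 125 and peaks with both subunits 298. It held 37 members, 18 of them above the median of their width.

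**Figure D2:**
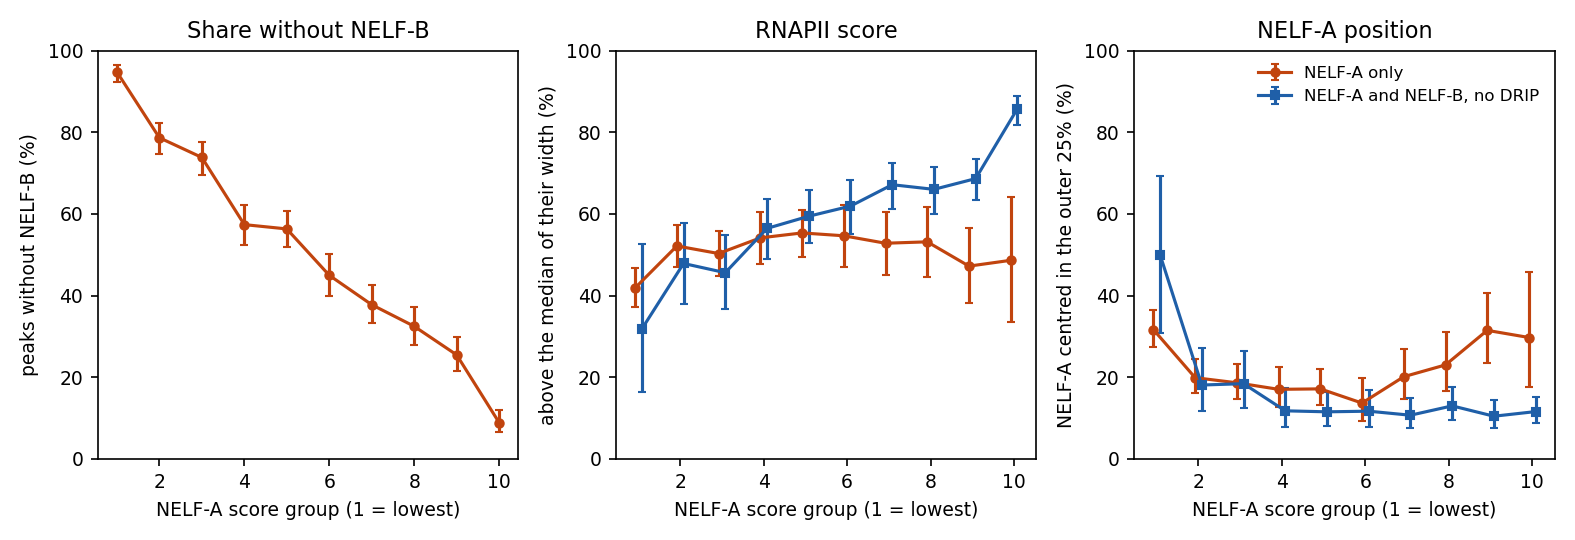
RNAPII peaks under 5000 bp with NELF-A and without DRIP, in 10 groups of rising NELF-A score (1 is the lowest), with 95% Wilson intervals. Left, share without NELF-B (%), which falls from 94.8% to 8.87%; middle, share with an RNAPII score above the median of its width (%); right, share with the NELF-A peak centred in the outer 25% of the RNAPII peak or beyond it (%).

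NELF-A score also followed RNAPII width less closely at members. Their median NELF-A score was 23 (22 to 25) at RNAPII peaks of 500 bp and 34 (32 to 38) at 1750 to 2000 bp. It was 30.5 (25 to 39) at 2250 to 3000 bp and 23 (15 to 39) at the 31 members of 3250 to 4750 bp. In the class with both subunits the median rose from 34 at 500 bp to 64 at 1750 to 2000 bp and 72 (64 to 77) at 2250 to 3000 bp. Spearman's rho between RNAPII score and NELF-A score across peaks was 0.230 for the 2170 members and 0.568 for the 2034 others. These correlations are descriptions across peaks, which are not replicates, and score rises with width in both lists (rho 0.977 for RNAPII and 0.878 for NELF-A). The rule that chose members also narrowed their NELF-A scores, which reached 125 against 298 in the other class. A narrower range can by itself lower rho and flatten the medians, and its part was not tested.

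**Figure D3:**
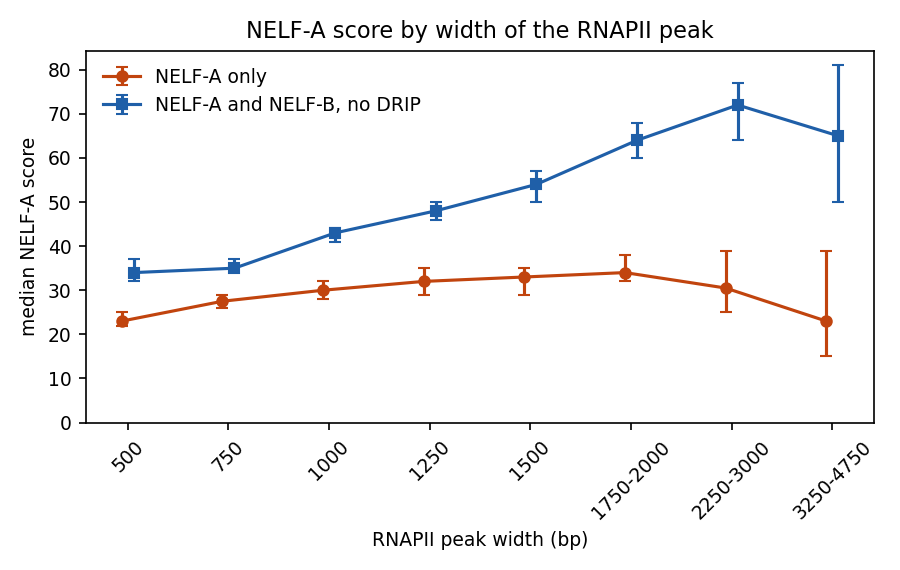
Median score of the highest NELF-A peak (vertical axis) by width of the RNAPII peak it overlaps (bp), with 95% order-statistic intervals. NELF-A-only peaks stay between 23 and 34, while peaks with both NELF subunits and no DRIP rise from 34 to 72 and stand at 65 in the widest class.

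Most NELF-A peaks lay over the middle of the RNAPII peak. The centres of both peaks were a median of 125 bp apart (quartiles 0 and 250 bp), the same as in the class with both subunits. NELF-A covered the whole RNAPII peak at 1270 members (58.5%, where all RNAPII peaks with NELF-A gave 50.8%) and lay wholly inside it at 897 (41.3%, against 49.4%). These counts share 313 members (14.4%) whose RNAPII and NELF-A peaks had identical ends. Both counts pool all widths, and at equal width NELF-A covered members no more fully than peaks with both subunits and no DRIP. The median share covered was 100% in both classes at 500 bp and 80.0% in both at 1250 bp. At 1500 bp it was 66.7% for members and 83.3% with both subunits. At 3250 to 4750 bp it was 23.5% and 35.7%, in the same order.

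A minority of members had NELF-A near an edge, and this was more frequent than with both subunits. The NELF-A peak was centred in the outer 25% at either end, or beyond it, at 471 members (21.7%), where all RNAPII peaks under 5000 bp with NELF-A gave 18.4%. The share was 12.6% with both subunits and no DRIP, a difference of 9.12 points (6.86 to 11.4), and 28.4% with NELF-A and DRIP. The excess over the class with both subunits was found in all 3 width classes. It was 6.43 points (2.22 to 10.4) at 500 to 750 bp, 6.23 (3.68 to 8.91) at 1000 to 1500 bp and 13.8 (6.78 to 21.1) at 1750 to 4750 bp. Of 7 exact widths, the share was higher in all 7, and the interval lay above 0 in 5.

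Within the NELF-A score groups, the interval of the difference in position lay above 0 in groups 7 to 10 and included 0 in groups 1 to 6. In group 9, NELF-A was off centre at 31.5% of members and 10.4% of peaks with both subunits, a difference of 21.04 points (12.2 to 30.8). The level depends on the 250 bp grid. Counting centres exactly on the 25% line as outer raised the members' share to 37.9% and the difference to 15.7 points (12.96 to 18.4). For the higher-scoring 50% of each list the share was 11.9% and the difference 3.56 points (0.739 to 6.36).

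**Figure D4:**
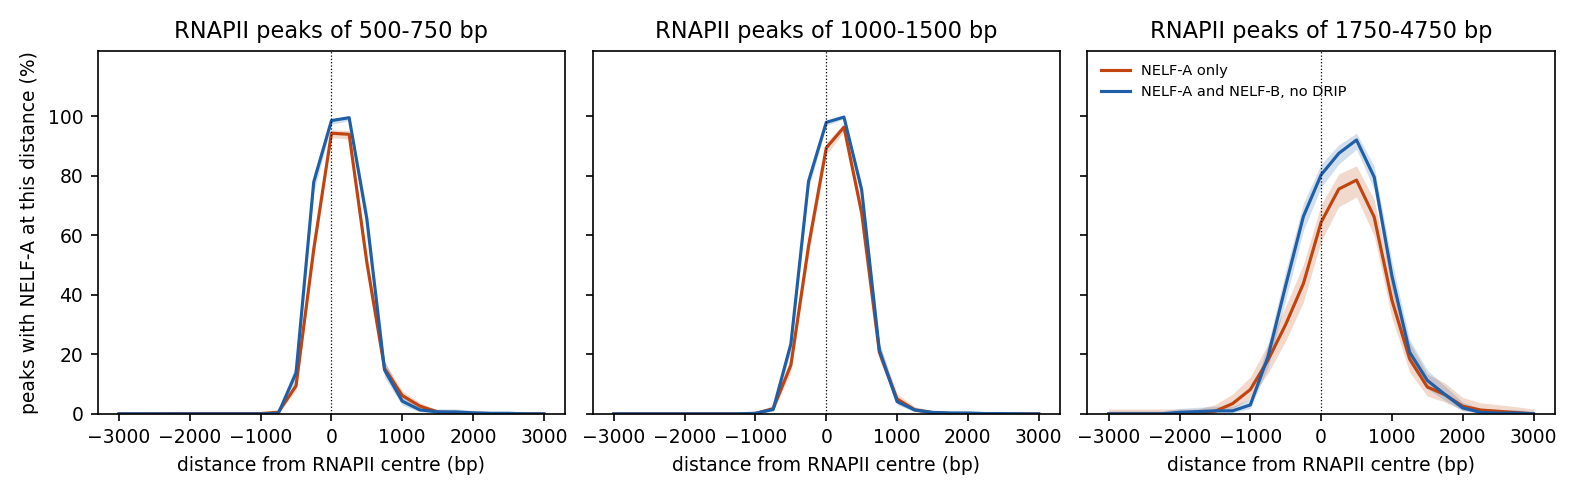
Share of RNAPII peaks with NELF-A (%) at each distance from the RNAPII peak's centre (bp), in 3 classes of RNAPII width, with 95% Wilson bands. Each peak was turned so that its highest NELF-A peak lies to the right, so the tilt to the right is by construction; at the centre of peaks of 1750 to 4750 bp, 64.4% of NELF-A-only peaks and 80.3% of those with both subunits carried NELF-A.

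NELF-A-only peaks were mostly solitary. No other RNAPII peak lay within 10 kb of 1663 members (76.6%, interval 74.8 to 78.4%), where all RNAPII peaks under 5000 bp gave 60.4%. Peaks without NELF and DRIP were isolated in 25.2% of cases, a difference of 51.5 points (48.7 to 54.1), and this held at all 7 widths. Peaks with both subunits were isolated in 80.9% of cases, a difference of -4.24 points (-6.70 to -1.76). It was negative at all 7 widths, with an interval below 0 in 3. For the higher-scoring 50% of each list it was -0.838 points (-3.93 to 2.30). The median distance from a member to the next RNAPII peak was 42750 bp, and it was 50000 bp with both subunits and no DRIP. The upper quartiles were 123688 bp and 113500 bp, where all RNAPII peaks under 5000 bp gave 88000 bp. Members over 100 kb from any other RNAPII peak numbered 662 (30.5%), a count given for members alone.

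The 507 members with a neighbour within 10 kb differed in several ways from the isolated ones. Their median width was 1000 bp against 750 bp, and their median RNAPII score was 231 (216 to 252) against 193 (184 to 206). NELF-A was off centre at 28.2% of them (24.5 to 32.3%) and at 19.7% of isolated members (17.9 to 21.7%). DRIP lay within 10 kb of 37.1% (33.0 to 41.4%) and 17.98% (16.2 to 19.9%), in the same order. The nearest neighbour was another RNAPII peak with NELF-A alone in 176 cases (34.7%), one without NELF and DRIP in 128 (25.2%) and one with both subunits and no DRIP in 116 (22.9%). In the whole list these classes made up 28.5%, 22.5% and 26.7%. Of the members, 59 (2.72%, where all RNAPII peaks under 5000 bp gave 6.92%) touched another RNAPII peak.

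NELF-B was seldom just outside the peak, and within 1000 bp its share was near that of all RNAPII peaks without NELF-B. It touched the RNAPII peak without overlap at 21 members (0.968%, where all RNAPII peaks without NELF-B gave 0.588%) and lay within 1000 bp of 63 (2.90%, against 3.03%) and within 3000 bp of 96 (4.42%, against 7.34%). Within 10 kb it lay near 235 members (10.8%, against 18.7%), and within 100 kb near 1195 (55.1%, against 61.7%). The contrast with peaks without NELF and DRIP changed direction with distance. NELF-B touched 1 of those 1689 peaks (0.0592%), so members were higher by 0.909 points (0.476 to 1.42). Peaks without NELF and DRIP had NELF-B within 10 kb in 25.2% of cases, a difference of -14.4 points (-16.9 to -11.95). These peaks also lay closer to other RNAPII peaks, and among isolated members 3.07% had NELF-B within 10 kb. For the higher-scoring 50% of each list the members' share was 4.004%. The part of isolation in the difference within 10 kb was not tested. At 33 members the NELF-A peak reached beyond the RNAPII peak and met a NELF-B peak there.

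DRIP peaks near members were about as frequent as near peaks with both NELF subunits and no DRIP, and the intervals of the difference included 0. A DRIP peak touched 71 members (3.27%, where all RNAPII peaks without DRIP gave 3.22%) and lay within 1000 bp of 218 (10.05%, against 10.8%). Within 3000 bp it lay near 14.3% of members (against 17.8%), and within 100 kb near 66.04% (against 70.4%). The difference to the class with both subunits was 0.803 points (-0.990 to 2.59) within 1000 bp. It was 0.564 points (-1.95 to 3.07) within 10 kb, where 22.4% of members had DRIP and all RNAPII peaks without DRIP gave 30.0%. With peaks within 1000 bp counted as shared, which removes members that close to DRIP, the share was 14.1%. Peaks without NELF and DRIP had DRIP within 10 kb in 49.4% of cases, a difference of -26.9 points (-29.9 to -23.9). Those peaks were isolated from other RNAPII peaks by 10 kb in 25.2% of cases, against 76.6% of members. Among isolated members 17.98% had DRIP within 10 kb. The part of isolation in this difference was not tested.

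Members were spread over all 20 chromosomes with peaks. They made up between 23.6% and 40.4% of RNAPII peaks under 5000 bp per chromosome, with a median of 30.2%. The X chromosome had the highest share, 57 of 141 peaks (40.4%, interval 32.7 to 48.7%), 10.9 points above the other chromosomes (3.13 to 19.3). NELF-B was listed at 28.4% of its RNAPII peaks, the lowest share of the 20 chromosomes. Among its RNAPII peaks with NELF-A and no DRIP, 64.8% had no NELF-B, 13.4 points more than elsewhere (2.92 to 22.7). Chromosome 8 followed with 119 of 313 peaks (38.02%), 8.70 points above the others (3.39 to 14.3). There NELF-A was listed at 80.8% of RNAPII peaks, and the share without NELF-B among peaks with NELF-A and no DRIP differed from elsewhere by 3.93 points (-2.93 to 10.6).

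Chromosome 11 had the lowest share, 160 of 679 peaks (23.6%), a difference of -6.75 points (-9.99 to -3.24), and DRIP was listed at 24.2% of its RNAPII peaks. On the other 17 chromosomes the interval included 0, and intervals were not adjusted for 20 comparisons. For the higher-scoring 50% of each list, the X chromosome's share was 27.6%, (17.75 to 40.2%), beside 27.5% for all chromosomes.

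**Figure D5:**
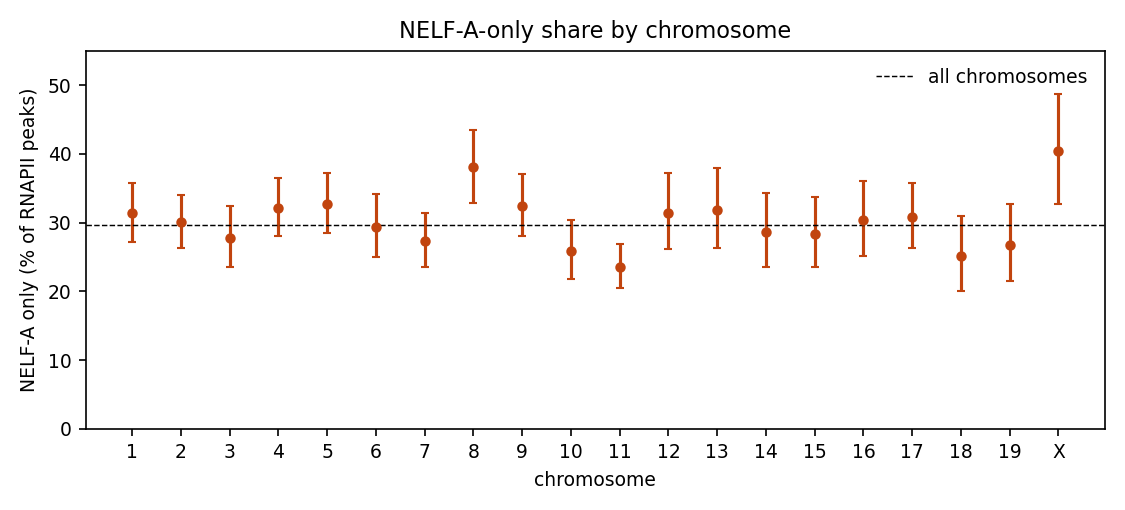
NELF-A-only peaks as a share of RNAPII peaks under 5000 bp (%) on each mouse chromosome, with 95% Wilson intervals and the share over all chromosomes as a dashed line. The X chromosome and chromosome 8 lie above the line and chromosome 11 below it.

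The members with the highest RNAPII scores were long peaks, most of them with a weak NELF-A peak. The first lay on chromosome 11 from 81848751 to 81853000, with an RNAPII score of 2766 over 4250 bp. Its NELF-A peak covered the first 500 bp and scored 11. The second, on chromosome 17 from 84579001 to 84583500, scored 2620 and had a NELF-A peak of 1000 bp and score 18 at its last bases. Another RNAPII peak lay 500 bp away, a DRIP peak 1250 bp away and a NELF-B peak 3250 bp away. The third, on chromosome 5 from 91332751 to 91337500, scored 2362, and NELF-A, with a score of 10, covered 5.3% of it at one edge. On the X chromosome from 151648001 to 151651500, RNAPII scored 1952 and NELF-A 18, and this peak touched another RNAPII peak. The fifth, on chromosome 5 from 139855751 to 139859750, scored 1918 and held 2 NELF-A peaks, the higher with a score of 35. In 4 of these 5 regions NELF-A scored 18 or less, below the members' lower quartile of 19.

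Ranking by score per 250 bp of peak brought up shorter regions too. The densest member, on chromosome 11 from 68886501 to 68887750, had 164.2 per 250 bp over 1250 bp and a NELF-A score of 27. A 1500 bp peak on chromosome 4 from 116862001 to 116863500 had 147.7 and a NELF-A score of 10. A 2750 bp peak on chromosome 8 from 11476251 to 11479000 had 146.2, held 3 NELF-A peaks and touched a DRIP peak. Over all members the median was 59.0 per 250 bp and the upper quartile 66.1.

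The 5 members with the highest NELF-A scores differed widely in RNAPII score, from 107 to 796. The highest, with a score of 125 (rank 140 in the NELF-A list), spanned 5000 bp on chromosome 19 from 46574001 to 46579000. The RNAPII peak within it, from 46576001 to 46576750, scored 158, touched a DRIP peak and had a further RNAPII peak 500 bp away. On chromosome 11 a NELF-A peak with a score of 108, from 23155001 to 23158000, covered an RNAPII peak from 23157001 to 23157500 that scored 107, near the lowest score listed. That RNAPII peak had a NELF-B peak 500 bp away and another RNAPII peak 750 bp away. The other three were broader RNAPII peaks, scored above the members' upper quartile of 313 and were isolated by more than 10 kb. They lay on chromosome 3 from 95622001 to 95624250, on chromosome 13 from 112278751 to 112281250 and on chromosome 9 from 100542751 to 100545500. Their NELF-A scores were 102, 91 and 89, and their RNAPII scores 701, 701 and 796. In these 3 regions NELF-B was at least 35250 bp away, and on chromosome 13 it was 972750 bp away.

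Clusters of members were small. Another member lay within 10 kb of 195 members, and no member had more than 2 others that close. The like count for other classes is not given. Among members with 2 others within 10 kb, the highest RNAPII score was on chromosome 7, where the peak from 75420501 to 75423250 scored 846 with a NELF-A score of 36. A further member there, from 75430751 to 75432500, scored 529 with a NELF-A score of 14. On chromosome 1 the peak from 92952001 to 92954750 scored 686 and also had 2 other members within 10 kb. Among the widest members, a 4750 bp peak on chromosome 19 from 5809501 to 5814250 scored 1288. It touched another RNAPII peak, held 2 NELF-A peaks and had NELF-B 5500 bp and DRIP 1000 bp away. With touching peaks joined in each list, 15 of the 17 named regions still met the rule, and with peaks within 1000 bp counted as shared 13 did. For the higher-scoring 50% of each list, and with the NELF-A list limited to the length of the NELF-B list, 7 did in each case.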

How the data were processed

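The data are ChIP-seq peaks of RNAPII, NELF-A and NELF-B and DRIP-seq peaks of R-loops from mouse mammary epithelium. BWA and mm9 are named in the submitters' processing notes. Which peak caller, threshold and control were used is not given in the sources used here. The authors deposited 1 peak list per target, with a score per peak of unstated unit. RNAPII and DRIP each carry a title with 2 libraries, which share 1 list. Libraries had 15 PCR cycles for RNAPII and DRIP and 18 for NELF, per the labels' protocols.

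Overlap meant 1 bp or more. Shares carry 95% Wilson intervals, differences of shares Newcombe intervals, and medians order-statistic intervals. No p-value was computed, since peaks of 1 list do not replicate a condition. Where several NELF-A peaks met a member, the highest-score one was used. Python 3.11.15, pandas 2.3.3 and scipy 1.17.1 were used, and the functions were tested on simulated peaks. Members, lists and tests were chosen with earlier results of these data known. Regions named are the 5 members with the highest RNAPII score, score per 250 bp and NELF-A score, the 3 widest and the 3 with most members within 10 kb. Planned gene lists, gene starts and base composition were not run, since the gene and sequence tables in use are of GRCm38 and the peaks are in mm9.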

Additional observations from a re-analysis of the deposited data

How the results depend on the processing

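Of 76 values recomputed for 15 results under alternative settings, 46 stayed within their counting interval, 30 moved and none changed sign among differences whose interval excluded 0. The 3 settings added after seeing the data were the shortened NELF-A list, the 25% line and isolated peaks only. No paired analysis was possible because each target had 1 list, and for the same reason no replicate could be left out. The NELF-A-only share was 27.0% with peaks within 1000 bp counted as shared, 27.5% in the upper 50% of each list by score, 28.5% with no width limit and 11.6% with the shortened NELF-A list.

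With peaks within 1000 bp counted as shared, NELF-A was off centre at 24.9% of members, and DRIP and NELF-B lay within 10 kb of 14.1% and 8.46%. In the upper 50% of each list, the median width was 1500 bp, the median NELF-A score 41, the share above the median of its width 48.05% (-24.98 points against both subunits), and the share without NELF-B in NELF-A score group 1 84.9%. There the off-centre share was 11.9% (3.56 points above both subunits), isolation 86.8% (-0.838 points), DRIP and NELF-B within 10 kb 16.1% and 4.004%, and the X chromosome's share 27.6%; that setting removes the weaker peaks by construction. Requiring 50% of the shorter peak gave 92.2% without NELF-B in NELF-A score group 1 and 24.6% with DRIP within 10 kb. Joining touching peaks gave 92.2% and an isolation of 78.6%. With the 25% line counted as outer the off-centre share was 37.9% (15.7 points). Among isolated peaks it was 19.7%, with DRIP and NELF-B within 10 kb of 17.98% and 3.07%. Isolation was 84.3% within 5 kb and 62.1% within 25 kb. Depth is unknown, so peaks below the lists' thresholds could not be told from no signal.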

Other observations

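Some members lay far from any other listed RNAPII peak: 58 were more than 1 Mb from the next one, and the farthest was 6308000 bp away. The like count for other classes is not given. With both subunits and no DRIP the farthest peak was 5451500 bp away. Single NELF-A peaks could span several RNAPII peaks, as 38 of the 2221 NELF-A peaks at members overlapped more than 1. At 41 members the NELF-A peak reached past the RNAPII peak and met a DRIP peak there, and at 33 it met a NELF-B peak.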
